A study of Mus musculus with 9 samples.

Results

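The Siglec receptors and their signalling adaptor were examined in dendritic cells (DC) sorted from mouse spleen. The 7 genes were taken by name from the count table, of 39179 genes in all: Siglech, Cd33, Cd22, Siglece, Siglecg, Siglec1 and the adaptor Tyrobp. The libraries came from C57BL/6J mice at steady state, with no stimulus and no engineered allele in any group. Conventional DC were split into the CD8+ subset cDC1 and the CD8- subset cDC2, and plasmacytoid DC (pDC) formed the third. Each subset was sorted 3 times, giving 9 libraries, with spleens of 15 to 17 mice pooled for every replicate. A pool averages over its animals, so spread between individual mice was not measured. DCs were separated from light-density spleen cells after depletion of cells carrying lineage markers, among them CD3, Thy-1, Ly6G/Ly6C and TER-119, and the sort used antibodies to CD11c, CD45RA, CD8, CD11b and CD49b, the last an integrin of NK cells.

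Siglecs are cell surface lectins of the immunoglobulin superfamily that recognise sialic acid, the sugar that caps many glycans. Many of them, including CD22 on B cells and several of the CD33-related receptors, carry inhibitory tyrosine motifs (ITIMs) that recruit phosphatases. Which motif or adaptor mouse CD33 uses was not examined here. Siglec-H lacks such a motif and instead pairs with DAP12, the product of Tyrobp, whose activating motif (ITAM) recruits the kinase Syk. Siglec-H is widely used as a surface marker of mouse pDC, where its ligation is known to restrain type I interferon production. Sialoadhesin, the product of Siglec1, is best known from macrophages.

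All but 1 of the 7 genes lie on chromosome 7 (GRCm38, GENCODE M21). Cd22 (chr7:30865402-30880342) and Tyrobp (chr7:30413760-30417585) lie in one neighbourhood, and Siglecg (chr7:43408204-43418358), Cd33 (chr7:43524216-43544428) and Siglece (chr7:43651070-43660161) in another. Siglech (chr7:55768178-55778925, plus strand, 6 exons in its principal transcript) lies apart from both, and Siglec1 (chr2:131069220-131086765, 21 exons) is on chromosome 2. Reads of 75 bases could be misplaced for a small part of 2 genes: 8.08% of such windows in the Cd22 transcript are shared with the antisense gene model Gm29439, and 5.85% of those in Siglecg with Gm29791, neither of which has a row in the count table. Windows of Siglech, Siglece, Siglec1 and Tyrobp were unique, and 0.106% of those in Cd33 were not.

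The sequence just before the start site is shown for the genes that were highest in pDC (Siglech, Cd33) and for the CD33-related genes that were highest in cDC2 (Siglece, Siglecg), so that their letters can be read beside the levels below. RefSeq start sites (GRCm38.p6) were held for 5 of the 7 genes, the other two being Siglec1 and Tyrobp. Each stretch holds the bases before the start site, up to 250 of them, that lie in no annotated exon, written 5′ to 3′ along the gene's own strand. For Cd33 the stretch lies inside the annotated gene, since longer transcripts begin further upstream. Capitals mark any match, on either strand, to CANNTG (the E-box, read by E proteins such as Tcf4), GAGGAA (a core read by the ETS factors PU.1 and Spi-B) or TGTGGT (the Runx core).
Siglech, chr7:55767934-55768177, + strand: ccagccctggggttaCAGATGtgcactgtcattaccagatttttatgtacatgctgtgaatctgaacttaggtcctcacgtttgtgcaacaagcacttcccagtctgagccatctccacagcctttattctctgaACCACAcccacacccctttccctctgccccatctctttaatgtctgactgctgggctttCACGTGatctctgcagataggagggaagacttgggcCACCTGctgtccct
Cd33, chr7:43533172-43533364, - strand: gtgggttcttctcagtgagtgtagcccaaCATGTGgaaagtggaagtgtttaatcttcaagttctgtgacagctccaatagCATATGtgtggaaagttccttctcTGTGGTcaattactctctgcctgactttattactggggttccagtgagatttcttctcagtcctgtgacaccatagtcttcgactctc
Siglece, chr7:43660162-43660411, - strand: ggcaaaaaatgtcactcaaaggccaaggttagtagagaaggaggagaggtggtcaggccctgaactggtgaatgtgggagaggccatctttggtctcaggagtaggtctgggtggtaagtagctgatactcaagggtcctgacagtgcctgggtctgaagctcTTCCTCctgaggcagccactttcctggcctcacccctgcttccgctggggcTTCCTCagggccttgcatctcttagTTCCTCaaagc
Siglecg, chr7:43407989-43408203, + strand: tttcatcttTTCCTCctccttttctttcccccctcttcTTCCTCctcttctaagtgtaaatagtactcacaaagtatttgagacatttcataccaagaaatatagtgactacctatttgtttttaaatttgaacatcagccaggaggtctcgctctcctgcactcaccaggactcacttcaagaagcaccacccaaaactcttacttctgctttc

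Siglech held 3 matches to CANNTG and 1 to TGTGGT, and Cd33 held 2 and 1, while neither held GAGGAA. The reverse was read in Siglece and Siglecg, which held 3 and 2 matches to GAGGAA, with none to the other motifs. Cd22, also highest in cDC2 and with a stretch of 148 bases, held 1 match to CANNTG and none to GAGGAA or TGTGGT. The motifs thus did not divide the pDC-high from the cDC2-high genes. Windows of the same length and position hold CANNTG in 65.4% of 27025 promoters for Siglech and 56.6% for Cd33, TGTGGT in 13.9% and 11.0%, and GAGGAA in 23.1% for Siglece and 19.9% for Siglecg. None of the 5 stretches held the ETS-IRF composite element or the interferon-stimulated response element, which 2.32% and 2.99% of promoters of the Siglech length hold. A match describes letters only and was not tested for binding.

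Library totals ran from 15806597 to 32453789 counts, and 3 counts corresponded to 0.0908 to 0.203 CPM (read counts scaled to the TMM-normalised library size). Marker sums followed the labels of cDC1 and pDC. The summed level of 7 cDC1 markers was 3902 to 4328 CPM in cDC1 against at most 699.7 elsewhere, and that of 8 pDC markers was 9232 to 9678 CPM in pDC against at most 310.005. The cDC1 sum includes Cd8a (1434 CPM in cDC1), the gene of a sort antigen. The pDC sum includes Bst2 (2325 CPM in pDC), which encodes CD317, by which the paper describes the pDC gate. Genes of gate antigens are no separate check of the labels. The sum of the 5 cDC2 markers did not set cDC2 apart, with 1773 to 1902 CPM in cDC2, 1893 to 2054 in pDC and 100 to 161 in cDC1. Cd4 was higher in pDC (1369 CPM) than in cDC2 (399 CPM). Of these markers, Itgam and Clec4a4 were far higher in cDC2 than in both other subsets, but Itgam encodes CD11b, also a sort antigen. Sirpa and Irf4 also had their highest mean in cDC2, by a smaller margin over pDC. Sirpa averaged 965 CPM in cDC2, 520 in pDC and 60.2 in cDC1, and Irf4 averaged 69.5, 53.1 and 15.0. The libraries of replicate 3, called the third sort here after their shared date code, stood apart from the others in many genes. NK cell markers summed highest there in every subset (41.8 CPM in pDC, 78.1 in cDC2 and 26.95 in cDC1). So did neutrophil, monocyte and T cell markers, the neutrophil sum with 52.3, 64.1 and 33.7 CPM. Of 13819 genes tested with edgeR at an adjusted p under 0.05, 48.6% differed between pDC and cDC1, 45.8% between pDC and cDC2, and 24.4% between cDC2 and cDC1.

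Each subset had its own Siglec profile. pDC were dominated by Siglech with Cd33 second in fold, cDC2 by Cd22, Siglecg and Siglece, and cDC1 held a low level of every Siglec gene. Tyrobp was ordered pDC, cDC2, cDC1. Siglec1 was scarce in all 9 libraries and passed no test.

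**Figure D1:**
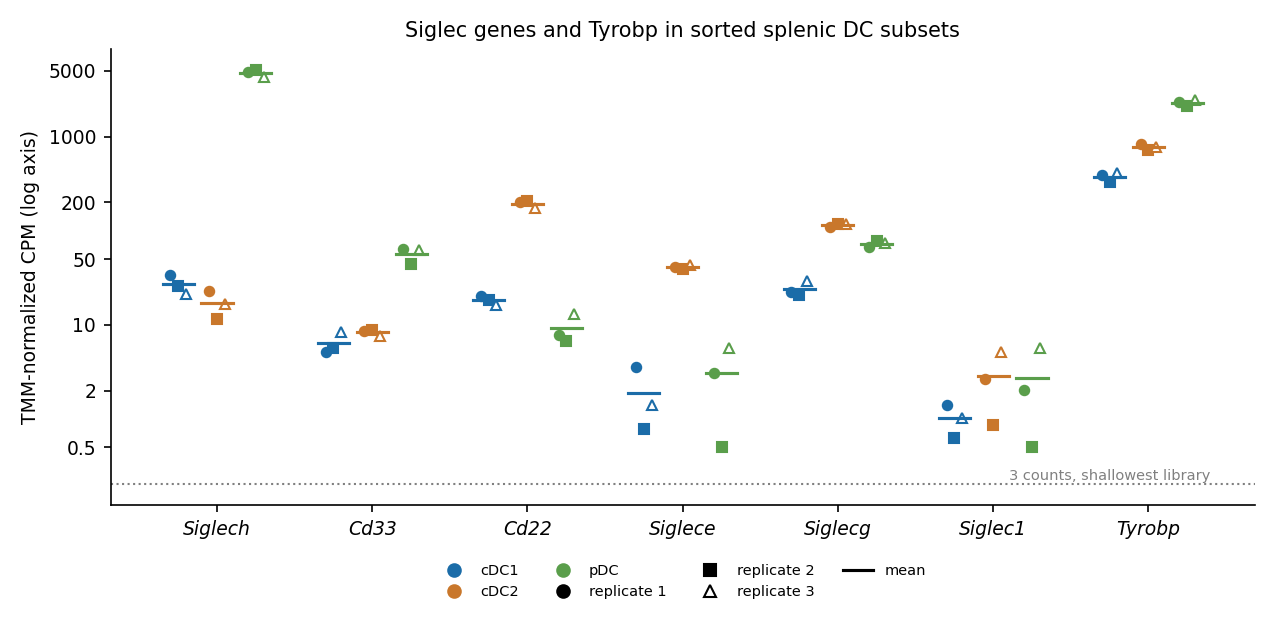
Normalised CPM (log axis) of the 6 Siglec genes and Tyrobp in the 9 libraries, with colour for subset, symbol for replicate and a bar for the mean of 3. Siglech reaches 4330 to 5110 CPM in pDC and at most 33.9 elsewhere, while Siglec1 and Siglece scatter over replicates wherever they are low.

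Siglech counted among the most abundant transcripts of pDC. It measured 4815, 5110 and 4330 CPM in the 3 pDC libraries, 33.9, 25.8 and 21.5 in cDC1, and 22.7, 11.5 and 16.8 in cDC2. The lowest pDC library thus lay far above the highest of the 6 conventional DC libraries. By read count the gene ranked 13, 7 and 19 among all genes of the pDC libraries and took 0.430% to 0.531% of their counts. The mean in pDC was 175-fold above cDC1 (log2 7.45 ± 0.302 SE, adjusted p = 8.98e-08, edgeR) and 279-fold above cDC2 (log2 8.13 ± 0.312, adjusted p = 9.72e-08). Only 0.970% and 0.405% of genes tested differed by a larger log2 fold change in these comparisons.

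The Siglech signal of conventional DC was small but well above 3 counts, with 316 to 930 counts per library. It amounted to 0.570% of the pDC mean in cDC1 and 0.358% in cDC2. In bulk libraries a few Siglech-rich cells and a low level in many cells cannot be told apart. Other pDC genes in the same libraries gave both lower and higher shares. Cox6a2 stood at 0.217% of its pDC mean in cDC1 and 0.314% in cDC2, Klk1 at 0.177% and 0.289%, and Ly6d, a lymphoid surface protein, at 0.261% and 0.269%. Those 3 genes had a higher share in cDC2 than in cDC1, whereas Siglech had the higher share in cDC1, as had Pacsin1 (1.68% and 0.482%) and the chemokine receptor gene Ccr9 (3.81% and 0.740%).

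Between the conventional subsets the Siglech values overlapped, since the highest cDC2 library (22.7 CPM) exceeded the lowest cDC1 library (21.5 CPM). The difference cDC2 minus cDC1 was −0.67 ± 0.235 on the log2 scale and missed the threshold (adjusted p = 0.0657). With the sort as a replicate block it was −0.69 and passed (adjusted p = 0.0171), and within each sort cDC2 lay below cDC1.

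Cd33, a myeloid Siglec, followed Siglech in direction at a far lower level. Its pDC values were 63.3, 44.7 and 63.0 CPM, against 5.14, 5.67 and 8.33 in cDC1 and 8.54, 8.93 and 7.55 in cDC2. Every pDC library was above every conventional DC library. Cd33 was 9.02-fold higher in pDC than in cDC1 (log2 3.17 ± 0.223, adjusted p = 2.24e-06) and 6.82-fold higher than in cDC2 (log2 2.77 ± 0.217, adjusted p = 4.99e-06). The conventional subsets overlapped (log2 0.40 ± 0.214, adjusted p = 0.222). Without the third sort this last difference was 0.66 and passed (adjusted p = 0.0361).

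Cd22, the inhibitory co-receptor of B cells, was highest in cDC2. It measured 201, 207 and 176 CPM in cDC2, 20.3, 18.3 and 16.3 in cDC1, and 7.78, 6.79 and 13.1 in pDC. No library of one subset overlapped with another, and the order was cDC2, cDC1, pDC. cDC2 exceeded cDC1 10.6-fold (log2 3.41 ± 0.230, adjusted p = 8.20e-06), and pDC were lower than cDC2 (log2 −4.41 ± 0.243, adjusted p = 5.00e-07). pDC were also lower than cDC1 (log2 −0.999 ± 0.221, adjusted p = 0.00412).

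B cell markers did not follow this pattern in their summed level. Of 8 listed markers, 7 had a row, and their summed level was 517 to 590 CPM in cDC2, 559.7 to 624 in cDC1 and 2729 to 4172 in pDC, nearly all of it Ighm. Defining genes were close to the floor: Pax5 reached at most 0.405 CPM in any library, and Cd79a averaged 0.380 CPM in cDC2. Between cDC2 and cDC1, 2 of the 5 B cell markers tested were higher (Cr2, 7.09 against 0.276 CPM, and Fcer2a, 2.92 against 0.590), beside 12.7% of all genes. Another 1 was lower (Ms4a1, 29.2 against 47.6), beside 11.7%. The median log2 difference of the 5 was 0.80, against 0.0269 over all genes tested. The part of B cells in the Cd22 values was not tested.

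Siglece, an inhibitory CD33-related receptor, showed the sharpest step between the conventional subsets. Its cDC2 values were 40.9, 38.8 and 43.6 CPM, against 3.53, 0.792 and 1.42 in cDC1 and 3.09, 0.507 and 5.66 in pDC. The cDC2 libraries lay close together, and those of cDC1 and pDC scattered 4.46-fold and 11.2-fold from lowest to highest. cDC2 exceeded cDC1 20.9-fold (log2 4.38 ± 0.715, adjusted p = 0.00157), and only 0.999% of genes differed by more. Without cDC1 replicate 1, the highest cDC1 library, this log2 difference was 5.25. pDC were lower than cDC2 (log2 −3.75 ± 0.687, adjusted p = 0.00147), with −4.41 when pDC replicate 3 was left out. pDC and cDC1 overlapped (log2 0.63 ± 0.692, adjusted p = 0.485), and the sign turned to −0.19 without the third sort.

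Siglecg, known from B cells and as a receptor for CD24, was shared by cDC2 and pDC. It measured 110.0, 117 and 117 CPM in cDC2, 67.1, 77.5 and 73.9 in pDC, and 22.7, 20.98 and 29.1 in cDC1. The subsets did not overlap. cDC2 were 4.74-fold above cDC1 (log2 2.25 ± 0.138, adjusted p = 5.26e-06), pDC were 3.01-fold above cDC1 (log2 1.59 ± 0.136, adjusted p = 8.02e-06), and pDC were below cDC2 by a smaller margin (log2 −0.66 ± 0.132, adjusted p = 0.00255).

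Siglec1 was scarce. Its counts were 39, 15 and 15 in cDC1, 84, 25 and 97 in cDC2, and 67, 10 and 97 in pDC, or 0.507 to 5.71 CPM. All 3 subsets overlapped, and the highest pDC library exceeded the lowest 11.3-fold. No comparison passed (log2 1.49 ± 0.860, adjusted p = 0.263 for cDC2 minus cDC1, with 1.41 and −0.08 for pDC minus cDC1 and minus cDC2).

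Macrophage markers varied from library to library alongside Siglec1 and, in pDC and cDC1, Siglece. Of 11 listed markers, 10 had a row, and none was at 0 throughout a subset. Their summed level was 186, 41.9 and 212 CPM in the pDC replicates, 187, 104 and 133 in cDC1, and 370, 173 and 300.1 in cDC2. Replicate 2 was lowest in each subset, as it was for the CPM of Siglec1 and Siglece. Neutrophil, monocyte and eosinophil markers also summed lowest in replicate 2 of each subset, so this was not particular to macrophage markers. The neutrophil sum there was 5.22 CPM in pDC (against 41.6 and 52.3), and 26.4 in cDC2 (against 46.95 and 64.1). In cDC2, Siglece stayed within 38.8 to 43.6 CPM while the macrophage sum ranged from 173 to 370 CPM. Between cDC2 and cDC1, 5 of the 10 macrophage markers were called higher in cDC2, the direction of the Siglece step, beside 12.7% of all genes. The other 5 did not pass. Among those called was C1qb (47.98 against 8.60 CPM, log2 2.49, adjusted p = 0.0154), which passed in 16 of 18 alternatives. C1qc passed in 14 of 18 and C1qa in 12. The part of macrophages, or of the other cell types with such markers, in the Siglec1 and Siglece values was not tested.

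**Figure D2:**
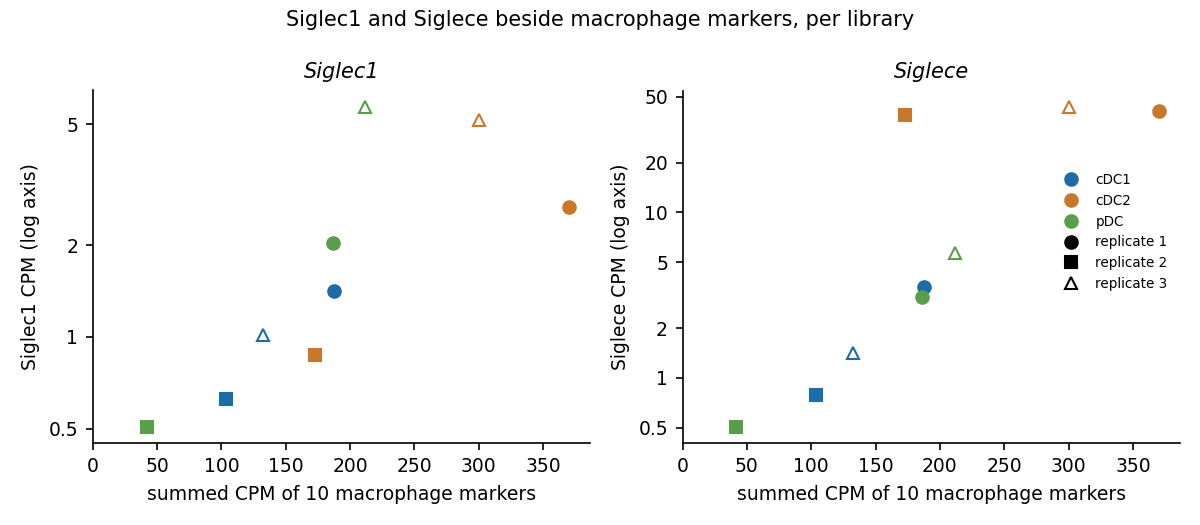
Siglec1 (left) and Siglece (right) in normalised CPM on a log axis against the summed CPM of 10 macrophage markers, 1 point per library, with colour for subset and symbol for replicate. The pDC library with the lowest marker sum, 41.9 CPM, has the lowest value of both genes, 0.507 CPM, while the cDC2 libraries hold Siglece near 41.1 CPM at every marker sum.

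Tyrobp, which encodes the adaptor DAP12, was abundant in all subsets. It measured 2317, 2100.5 and 2430.1 CPM in pDC, 846, 729 and 772 in cDC2, and 389.5, 327 and 408 in cDC1, without overlap. By read count it ranked 31 to 36 in pDC, 127 to 146 in cDC2 and 370 to 466 in cDC1. pDC exceeded cDC1 6.09-fold (log2 2.61 ± 0.115, adjusted p = 1.35e-07) and cDC2 2.92-fold (log2 1.55 ± 0.111, adjusted p = 2.74e-06), and cDC2 exceeded cDC1 2.09-fold (log2 1.06 ± 0.110, adjusted p = 9.41e-05).

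Across the 7 genes, the comparison of pDC with cDC1 called 4 higher and 1 lower in pDC, beside 24.3% and 24.4% of all genes tested. Against cDC2, pDC were higher for 3 and lower for 3, beside 22.5% and 23.3%. cDC2 exceeded cDC1 for 4, beside 12.7% (and 11.7% lower), with the other 3 not passing. The median log2 differences were 1.59, −0.08 and 1.49, against 0.0178, −0.0088 and 0.0269 over all genes tested. All 15 of these calls came from subsets whose libraries did not overlap, which held for 58.6%, 56.1% and 44.5% of all genes in the 3 comparisons. The comparisons share libraries, so their calls are not independent of one another.

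**Figure D3:**
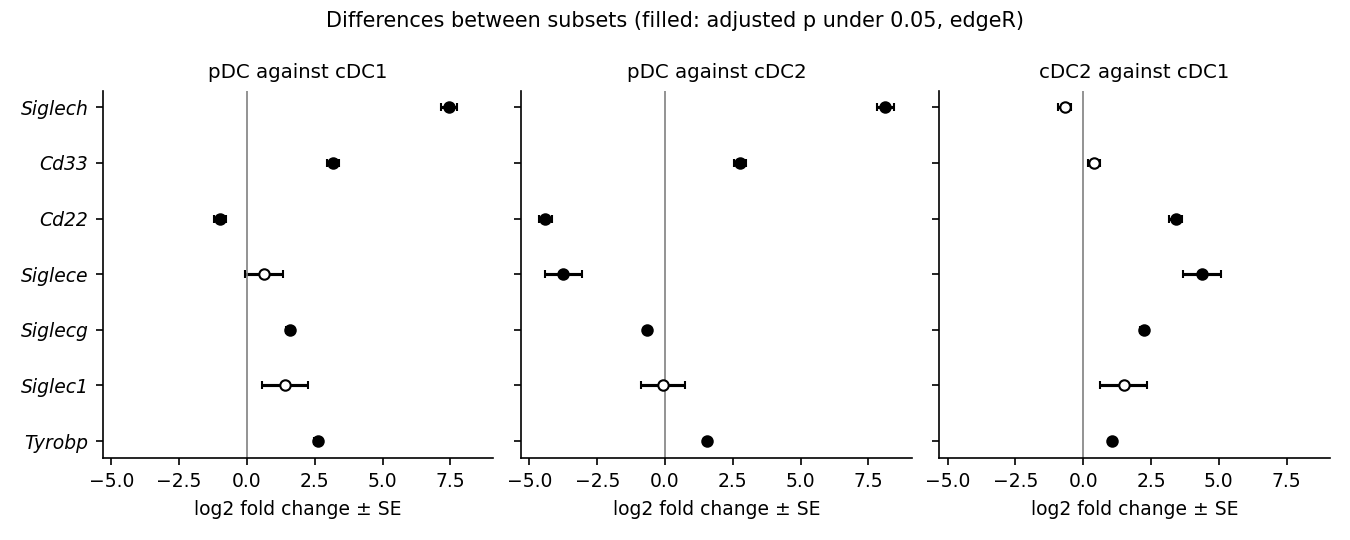
Log2 fold change with its standard error for each gene in the 3 comparisons, 3 libraries per subset, with filled points for an adjusted p under 0.05 and open points otherwise. Siglech stands at 7.45 and 8.13 in the pDC comparisons and Siglece at 4.38 between cDC2 and cDC1, and the 3 Siglec1 points are open.

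Of the other Siglec genes, only traces were found. Siglec15 had at most 6 counts in any library and was not tested. The row named Siglec5, whose identifier GENCODE gives to Siglecf, an eosinophil receptor gene, averaged 0.290, 1.36 and 1.34 CPM in cDC1, cDC2 and pDC, and Mag, the myelin-associated Siglec gene, averaged 0.207, 0.563 and 0.0472 CPM. Siglec5 passed between pDC and cDC1 (log2 2.12, adjusted p = 0.0438) and lost that call with the replicate block, and Mag passed between pDC and cDC2 (log2 −3.27, adjusted p = 0.0134).

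Levels of different genes were compared as CPM per kb of the principal transcript. On this scale the 6 Siglec genes summed to 29.0 ± 3.37 in cDC1, 126 ± 2.33 in cDC2 and 2265 ± 180.5 in pDC (SD, n = 3). Siglech made up 98.1% of the sum in pDC (97.7% to 98.4% over libraries), 43.4% in cDC1 (36.1% to 48.3%) and 6.31% in cDC2 (4.28% to 8.29%). In cDC2, Cd22 held 38.9%, Siglecg 35.5% and Siglece 17.7%. In cDC2 replicate 3, Siglecg (36.9%) stood above Cd22 (35.9%). In cDC1, Siglecg held 32.8% (26.9% to 40.7% over libraries) and Cd22 15.9%, so that Siglech had the largest mean share, although Siglecg exceeded it in cDC1 replicate 3. Without Siglech the sum was 42.7 ± 3.75 in pDC, which lay between cDC1 (16.3 ± 1.84) and cDC2 (118 ± 2.49). Lengths over the union of all exons gave Siglech 98.1% in pDC as well, with Cd22 at 42.3%, Siglecg at 26.2% and Siglece at 24.4% in cDC2.

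**Figure D4:**
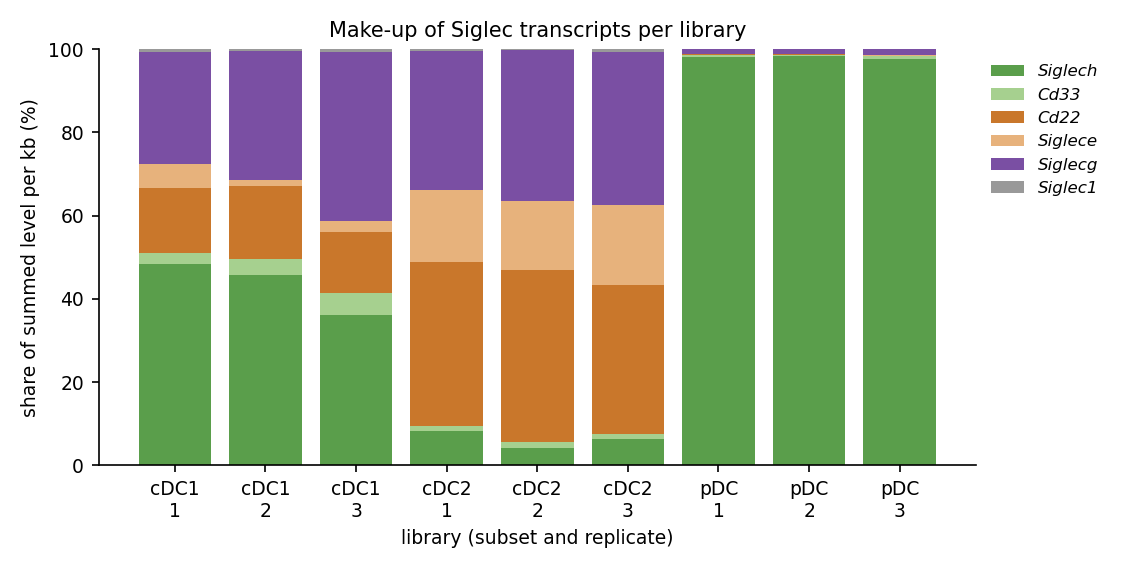
Share of each of the 6 Siglec genes in their summed level, in percent of CPM per kb of principal transcript, for each library. The pDC bars are 97.7% to 98.4% Siglech, the cDC2 bars are mostly Cd22 and Siglecg, and the cDC1 bars are mixed.

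The ratio of receptor to adaptor transcripts was highest in pDC. Per kb, Siglech stood at 0.553 ± 0.0860 of Tyrobp in pDC (0.548, 0.642 and 0.470), at 0.0192 in cDC1 and at 0.00566 in cDC2. Tyrobp itself was 4047 ± 297 CPM per kb in pDC, 1387 ± 105 in cDC2 and 665 ± 74.6 in cDC1. Tyrobp thus exceeded Siglech per kb in each of the 9 libraries, by the least in pDC.

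DAP12 serves many receptors besides Siglec-H, and the genes of those partners were highest mostly in cDC2. Of 15 tested from a list of 16, cDC2 exceeded cDC1 for 11 and lay below it for 1, beside 12.7% and 11.7% of all genes (median log2 3.72, against 0.0269), while 11 were lower in pDC than in cDC2, beside 23.3% (median −3.59). Between pDC and cDC1, 1 was higher and 3 were lower, beside 24.3% and 24.4%. Sirpb1a, a SIRP-beta receptor gene, measured 289.7, 269 and 298 CPM in cDC2, 13.1, 5.004 and 9.07 in cDC1, and 3.03, 0.456 and 0.236 in pDC (log2 4.97 for cDC2 minus cDC1, adjusted p = 0.000275). Its near-identical neighbours Sirpb1b and Sirpb1c gave 4.68 and 4.75, and reads may have been split among the 3 copies. Trem3 gave 4.84 (5.40 against 0.167 CPM). Klrk1, the NKG2D receptor gene, ran the other way, with 123, 73.7 and 16.1 CPM in cDC1, cDC2 and pDC (log2 −2.93 for pDC minus cDC1, adjusted p = 1.11e-07). Klrd1 was the gene higher in pDC than in cDC1 (150 against 34.7 CPM, log2 2.12, adjusted p = 0.000236). It was not particular to pDC, since its mean raw count was 3592 in cDC2, 3340 in pDC and 706 in cDC1. NK cell markers, whose cells carry several of these receptors, gave 1 of 5 higher in cDC2 than in cDC1 (Ncr1, 6.42 against 1.32 CPM), beside 12.7% of all genes. Their median log2 difference was 1.69 and their mean sum 43.3 against 15.6 CPM, although CD49b was labelled in the sort. Of the macrophage markers, 5 of 10 were higher in cDC2 as well, beside the same 12.7%. The part of either cell type in the levels of these receptors was not tested.

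The other ITAM adaptor, Fcer1g, was not graded in the same way as Tyrobp. Its means were 427 ± 80.7 CPM in pDC, 382 ± 51.9 in cDC2 and 55.1 ± 19.8 in cDC1, so that pDC and cDC2 overlapped (log2 0.16, adjusted p = 0.626) and both exceeded cDC1 (log2 2.96, adjusted p = 9.92e-06, and log2 2.79, adjusted p = 5.00e-05). Hcst, the DAP10 gene, averaged 6.45, 9.83 and 12.6 CPM in cDC1, cDC2 and pDC and passed only between pDC and cDC1 (log2 0.96, adjusted p = 0.00352). With the replicate block it also passed between cDC2 and cDC1, which brought the adaptors called there from 1 to 2.

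Kinases and linkers downstream of ITAMs were called in both directions. Of 15 genes, 6 were higher and 4 lower in pDC than in cDC1, beside 24.3% and 24.4% of all genes. Against cDC2, 7 were higher and 4 lower in pDC, beside 22.5% and 23.3%, and cDC2 exceeded cDC1 for 6 and lay below it for 2, beside 12.7% and 11.7%. The shares called lower were near those of all genes. Blnk, a linker known from B cell receptor signalling, averaged 288 ± 23.7 CPM in pDC, 3.88 in cDC1 and 2.96 in cDC2 (log2 6.23, adjusted p = 3.35e-08, and 6.61, adjusted p = 5.08e-08). Lcp2, the linker SLP-76 of T cells and myeloid cells, was lowest in pDC (51.0 ± 8.17 CPM, against 170 in cDC1 and 373 in cDC2, log2 −2.87 against cDC2, adjusted p = 1.87e-07). Among Src family kinases, Fyn was higher in pDC (960 CPM, against 98.1 and 91.6), whereas Fgr was near 702 CPM in pDC and 619 in cDC2 but 121 in cDC1. Syk, which binds phosphorylated DAP12, followed the order of Tyrobp with 492 ± 64.6 CPM in pDC, 323 ± 25.6 in cDC2 and 130 ± 26.8 in cDC1 (log2 1.92, adjusted p = 8.79e-06 for pDC minus cDC1).

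The phosphatases recruited by ITIMs were measured in every subset. Ptpn6, which encodes SHP-1, averaged 968 ± 97.0 CPM in pDC, 744 ± 69.7 in cDC2 and 259.8 ± 33.2 in cDC1 (log2 1.90, adjusted p = 1.84e-06 for pDC minus cDC1, and 1.52, adjusted p = 2.79e-05 for cDC2 minus cDC1). The step from cDC2 to pDC was small (log2 0.38, adjusted p = 0.0317) and missed the threshold without either cDC2 replicate 1 or 3 or pDC replicate 1 or 2. Ptpn11, which encodes SHP-2, was lower in pDC than in cDC1 (102 against 142 CPM, log2 −0.47, adjusted p = 0.00698). Of the inositol phosphatases, Inppl1 was higher in pDC (107 CPM, against 23.8 and 32.4, log2 2.17 and 1.72), and Inpp5d was highest in cDC1 (667 CPM, against 406 and 372).

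Genes that make, modify or transport sialic acid, the ligand of Siglecs, were mostly higher in pDC than in cDC1, and as many passed as did not against cDC2. Of 8 genes tested from a list of 9, pDC exceeded cDC1 for 7 and cDC2 for 4, beside 24.3% and 22.5% of all genes. Cmah, which converts the acetyl form of sialic acid to the glycolyl form, measured 265, 313 and 186 CPM in pDC, 1.86, 1.33 and 1.08 in cDC1, and 2.49, 1.89 and 1.49 in cDC2. That was 173-fold above cDC1 (log2 7.44, adjusted p = 9.30e-08) and 128-fold above cDC2 (log2 6.997, adjusted p = 1.51e-07). Gne, the rate-limiting enzyme of sialic acid synthesis, averaged 165 ± 21.7 CPM in pDC, 28.5 in cDC1 and 23.9 in cDC2 (log2 2.53, adjusted p = 4.20e-06, and 2.78, adjusted p = 2.65e-06). Siae, which removes acetyl groups from sialic acid, was also higher (61.6 CPM, against 23.0 and 27.5). Nans, the synthase that follows Gne, passed no comparison (71.8, 84.3 and 66.2 CPM in pDC, cDC1 and cDC2). Between cDC2 and cDC1 only Slc17a5, a sialic acid exporter of lysosomes, was called, higher in cDC2 (log2 1.04, adjusted p = 0.00504), and with the replicate block the count there was 3, with 2 higher and 1 lower.

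**Figure D5:**
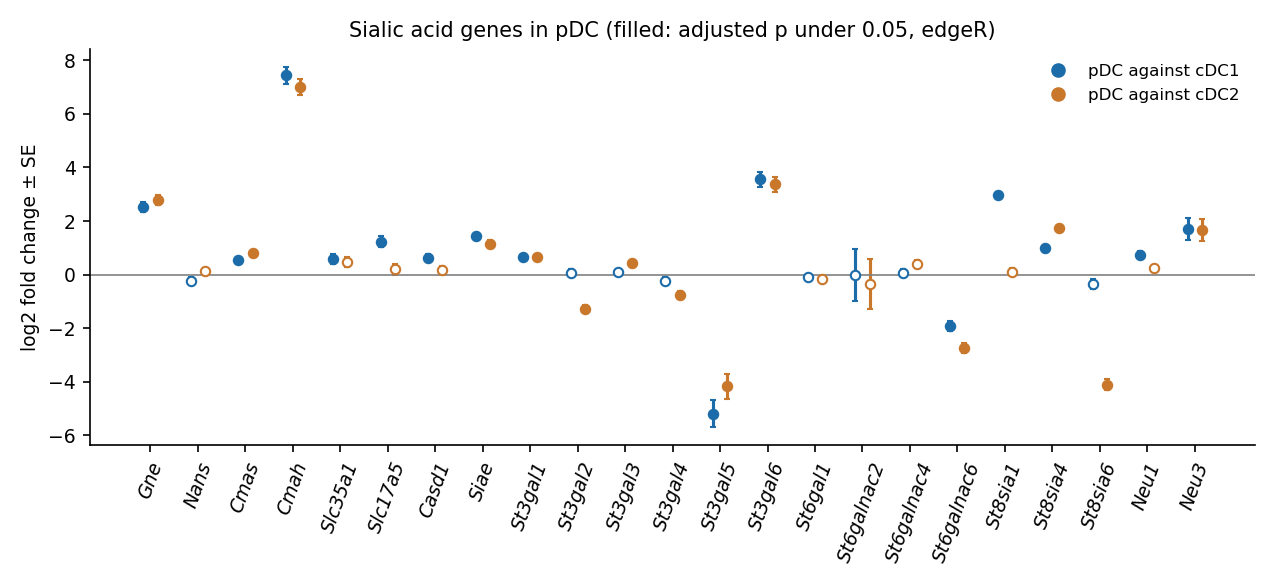
Log2 fold change with standard error of the tested genes of sialic acid synthesis and transport, sialyltransferases and sialidases, for pDC against cDC1 and pDC against cDC2, filled for an adjusted p under 0.05. Cmah stands highest at 7.44 and 6.997, and St3gal5 lowest at −5.19 and −4.18.

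Sialyltransferases, which attach the sugar, differed gene by gene. Of 13 tested from a list of 20, 4 were higher and 2 lower in pDC than in cDC1, beside 24.3% and 24.4% of all genes, and 4 were higher and 5 lower in pDC than in cDC2, beside 22.5% and 23.3%. As a list they thus stood near the background against cDC1. St3gal5, the synthase of the ganglioside GM3, averaged 4.29 CPM in pDC, 154 in cDC1 and 76.2 in cDC2 (log2 −5.19, adjusted p = 1.61e-05, and −4.18, adjusted p = 6.21e-05). St3gal6 was higher in pDC (68.7 CPM, against 5.87 and 6.68, log2 3.56 and 3.37). St8sia6 was a cDC2 gene (212 ± 12.7 CPM, against 15.4 in cDC1 and 12.2 in pDC, log2 3.78 for cDC2 minus cDC1, adjusted p = 2.23e-06), and St8sia1 was shared by cDC2 and pDC (88.0 and 94.7 CPM, against 12.2). St6gal1, which makes the linkage preferred by CD22, averaged 212, 222 and 198 CPM in cDC1, cDC2 and pDC and passed no comparison. Between cDC2 and cDC1, 5 were higher and 1 lower, beside 12.7% and 11.7%, and without the third sort 6 and 4.

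Sialidases remove the sugar. Neu1 and Neu3 were tested, and both were higher in pDC than in cDC1 (log2 0.73, adjusted p = 0.00159, and 1.70, adjusted p = 0.00731), with Neu3 also higher than in cDC2 (3.40 against 1.06 CPM). Neu1 was higher in cDC2 than in cDC1 too (27.8 against 19.7 CPM, log2 0.50, adjusted p = 0.0256), a call that held in 13 of 18 alternatives.

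Sialylated proteins that Siglecs are known to bind were distributed unevenly. Cd24a, whose product is a ligand of Siglec-G, averaged 90.3 ± 37.5 CPM in pDC, 105 ± 22.0 in cDC2 and 615 ± 129 in cDC1 (log2 −2.56 for cDC2 minus cDC1, adjusted p = 0.000224, and −2.77 for pDC minus cDC1, adjusted p = 4.83e-05). It was highest in cDC1, the subset in which Siglecg was lowest. Spn, which encodes the mucin CD43, averaged 563 ± 49.5 CPM in pDC, 109 in cDC2 and 59.5 in cDC1 (log2 3.24, adjusted p = 3.35e-08, and 2.37, adjusted p = 1.56e-07). Ptprc, the CD45 gene and a known CD22 ligand, was highest in cDC2 (2636 ± 384 CPM, against 1079.7 in cDC1 and 1224 in pDC), the subset in which Cd22 was highest too. Selplg, which encodes PSGL-1, was highest in pDC (1338 CPM, against 729 and 547).

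The genes whose levels ran most like each receptor were read from Pearson's r of log2(CPM + 1) over the 9 libraries, as a description. The libraries fall into 3 subsets, so a high r mostly restates a shared order of subsets. Siglech ran most like Srl (r = 0.9993, 64.4 CPM in pDC, 3.02 in cDC1 and 2.21 in cDC2), Havcr1 (0.9986) and Agtrap (0.9984). Cd22 ran most like Skint3 (0.996), Cdcp1 (0.9938) and Clec4a4 (0.9922), the last a C-type lectin gene on the cDC2 marker list. Siglece ran most like Impdh1 (0.9907), Cd300lb (0.9897) and Clec4a3 (0.9879), of which Cd300lb encodes a DAP12-pairing receptor. Nearest to Siglecg were Lilra6 (0.9872), Ccnd1 (0.9862) and Sh2d1b1 (0.9855), and nearest to Cd33 were Ppfia4 (0.9934), Bscl2 (0.9932) and Nceh1 (0.9928). Tyrobp ran most like Spib (0.9986), the ETS factor gene of pDC and B cells, then Sms (0.9968) and Gapt (0.9966). For Siglec1 the nearest were Rnf181 (0.9426), Fn1 (0.9259) and Appl1 (0.9258), lower values than for the other 6, in a gene whose subsets all overlapped.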

How the data were processed

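Total RNA from sorted spleen DC was made into stranded poly(A) libraries (TruSeq Stranded mRNA) and sequenced as single reads of 75 bases. The authors deposited 1 table of raw read counts per gene for all 9 libraries, with no normalisation. The submitters' processing notes name STAR, SAMtools, MultiQC and featureCounts and the build mm10, and versions, annotation and strand setting are not given in the sources used here. Where counting ignored strand, antisense overlap could not be separated.

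Counts were normalised by TMM and fitted over all 9 libraries with subset as the term in edgeR 4.0.16 (R 4.3.3, limma 3.58.1, quasi-likelihood F test), after filterByExpr (minimum count 10), with Benjamini-Hochberg adjustment over 13819 genes and a threshold of 0.05. The fit was also run on simulated counts. These were drawn without a shared sort effect, so that run did not check the fit under the joint deviations given below. Levels are TMM-normalised CPM with SD over 3 libraries, and CPM per kb used principal transcripts of GENCODE M21, in which 37693 of 39179 gene identifiers were found. Floors of 3 counts cover counting error only. Libraries of 1 subset differed beyond sampling noise (chi-square per degree of freedom 10.7 to 68.5). Replicates are separate pools, so p-values measure spread between pools. Libraries with the same replicate number share a date code in the labels and deviated together (mean correlation of deviations 0.403, lowest 0.266 over 9 pairs). The number was thus read as a shared batch, called a sort here. The labels do not say whether the date is that of the sort or of a later step. No replicate of a group was merged or left out.

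Each member was named. Of each other list, up to 3 genes per comparison with the largest change among called genes with a mean count of at least 100 were named, lists of up to 4 genes in full, and for each member the 3 genes with the most similar pattern among genes of at least 10 CPM. St6gal1, Nans, Klrd1, Syk, Lcp2 and the B cell, NK cell and macrophage genes named lay outside this rule or were chosen after their values were seen. The members and lists were chosen with earlier results of these data known. Alternatives were the sort as a block, DESeq2 1.42.0, limma-voom, other scalings, other filters, subsets of libraries and each library left out. Promoters came from RefSeq (GRCm38.p6). Figures used Python 3.11.15 and matplotlib 3.10.9. Some genes of the lists are not reported here by name.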

Additional observations from a re-analysis of the deposited data

How the results depend on the processing

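Over 18 alternatives per comparison, the members called numbered 5 between pDC and cDC1, 6 between pDC and cDC2, and 4 or 5 between cDC2 and cDC1. With single libraries left out, the genes called ranged from 5618 to 7106, from 5346 to 6689 and from 2451 to 4100 in these comparisons. Without the third sort, 5356 genes rather than 3370 were called between cDC2 and cDC1, and the cause was not tested. Of 378 values for the members' fold changes, 367 kept their direction and side of the threshold. Siglece between pDC and cDC1 turned to −0.0405 without pDC replicate 3 and to −0.19 without the third sort, and ranged up to 1.504 with single libraries left out. Siglec1 between pDC and cDC2 turned to 0.60 without cDC2 replicate 3, to 0.10 without pDC replicate 1 and to 0.41 without pDC replicate 2, and ranged down to −1.14 with pDC replicate 3 left out. Neither comparison passed in any setting. Siglech between cDC2 and cDC1 passed in 5 settings: the replicate block (−0.69), DESeq2 (−0.68, adjusted p = 0.0305), no filter (−0.68, adjusted p = 0.0423), without cDC1 replicate 3 (−0.84, adjusted p = 0.0464) and without cDC2 replicate 1 (−0.94, adjusted p = 0.0188). The replicate block changed no other call of a member. Among other named genes, 1778 of 1818 values were unaffected in this sense and 40 lost the threshold, among them Ptpn6 between pDC and cDC2 in 5 settings, one of them scaling by library size alone. Of 81 list counts recomputed with the block, without the third sort or by library size alone, an addition made after the data were seen, 13 moved by over 1.5 times. At this depth Siglec15, with at most 6 counts in a library, could not be tested.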
